A study of Mus musculus with 19 samples.

Results

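Glycolysis splits glucose into pyruvate in the cytosol, and lactate dehydrogenase then turns pyruvate into lactate or back, while pyruvate dehydrogenase feeds it into mitochondria. The pentose phosphate pathway branches off at glucose-6-phosphate and makes NADPH and ribose for reductive and nucleotide synthesis. Dividing thymocytes, myeloid precursors and leukemic blasts are known for a high use of glucose, and several steps are run by isoenzymes from different genes whose use is typical of a cell type. The account below covers 34 enzyme genes of these pathways, chosen by name from textbook steps: hexokinases, glycolytic enzymes, lactate dehydrogenases, pyruvate dehydrogenase and its kinases, the enzymes that make and break fructose-2,6-bisphosphate, and pentose phosphate enzymes. All 34 were found among the 23458 gene names of the count table, and all 34 were among the 15508 genes tested.

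The RNA came from C57BL/6 mice with leukemia driven by an internal tandem duplication in the receptor tyrosine kinase FLT3 (FLT3-ITD), with or without the DNA methyltransferase gene Dnmt3a, and from their controls. In the retroviral model, all donor marrow carried Mx1-cre, and retrovirus (MSCV) brought in FLT3-ITD with GFP or GFP alone before transplantation into lethally irradiated recipients. Donor-derived CD4+CD8+ cells were then sorted. These groups are called KO-ITD (Dnmt3a f/f with FLT3-ITD, n = 4, from marrow for replicates 1 and 2 and thymus for 3 and 4), WT-ITD (Dnmt3a +/+ with FLT3-ITD, n = 3, from thymus for replicates 1 and 3 and marrow for 2), KO-GFP (Dnmt3a f/f with GFP alone, n = 2) and WT-GFP (Dnmt3a +/+ with GFP alone, n = 2), the GFP groups all from thymus. The donor marrow was Sca-1 enriched for KO-ITD and ckit enriched for KO-GFP, while that of WT-ITD was Sca-1 enriched, ckit enriched and whole marrow for replicates 1, 2 and 3. No enrichment is stated for WT-GFP donors in the sources used here. Between KO-ITD and KO-GFP, enrichment and FLT3-ITD cannot be told apart. In the knock-in model, mice had Flt3 +/ITD, and bulk marrow is described as taken without a sort. The leukemias had ER-cre with Dnmt3a f/f (n = 1) or Dnmt3a f/+ (n = 2). Pre-leukemic marrow had Dnmt3a f/f but no Cre (n = 3). FLT3-ITD is expressed from a viral promoter in the first model and from the mouse gene in the second, and all knock-in groups carry it. The labels call the replicates biological but tie none to an animal, so the p-values cover only the spread seen among these libraries, which may be technical.

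Deposited counts summed to between 4933890 and 25331908 per library, and levels are given as CPM, the count of a gene scaled to the size of its library. Dnmt3a itself stood at 65.8, 127, 68.1 and 53.0 CPM in KO-ITD and 180, 238 and 183 CPM in WT-ITD, against 207 and 144 CPM in KO-GFP and 257 and 250 CPM in WT-GFP. These counts cover the whole gene, of which the deletion removes a part. Dnmt3a was at 36.5 to 55.0 CPM in knock-in leukemias and at 130 to 153 CPM in pre-leukemic marrow. The summed level of 10 T cell markers was 4205 to 8188 CPM in KO-ITD and 7806 to 10917 CPM in WT-ITD, against 11813 to 13413 CPM in KO-GFP and 12276 to 12754 CPM in WT-GFP, and no T cell marker was at 0 in any of these libraries. In knock-in leukemias and pre-leukemic marrow the T cell sum was at most 96.9 CPM. KO-ITD replicate 4 stood apart, with 4053 CPM of monocyte and macrophage markers, against at most 325 CPM in the other retroviral libraries, and 2659 CPM of stroma markers. All GFP libraries expressed Xist, the X-inactivation RNA of female cells, at 1463 CPM or more, and KO-ITD replicate 2 had 2276 CPM and WT-ITD replicate 3 had 1234 CPM, while the other leukemias and all pre-leukemic marrow had at most 2.26 CPM. In bulk RNA, fewer cells of a type and less RNA per cell cannot be told apart.

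As a whole, the 34 genes took a larger share of the counts in leukemia than in its control, in both models. Together they made up 0.792%, 0.741%, 0.83% and 0.694% of all counts in KO-ITD and 0.745%, 0.713% and 0.612% in WT-ITD, against 0.468% and 0.542% in KO-GFP and 0.560% and 0.529% in WT-GFP. Every retroviral leukemia lay above every GFP library. Knock-in leukemias had 1.40% (Dnmt3a f/f), 1.01% and 1.90% (Dnmt3a f/+), against 0.945%, 0.898% and 0.880% in pre-leukemic marrow, so that these groups did not overlap either. The largest parts of the sum came from enzymes such as Gapdh, Pkm and Gpi1, and it is a description without a test. The heat map shows the same genes one by one.

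**Figure D1:**
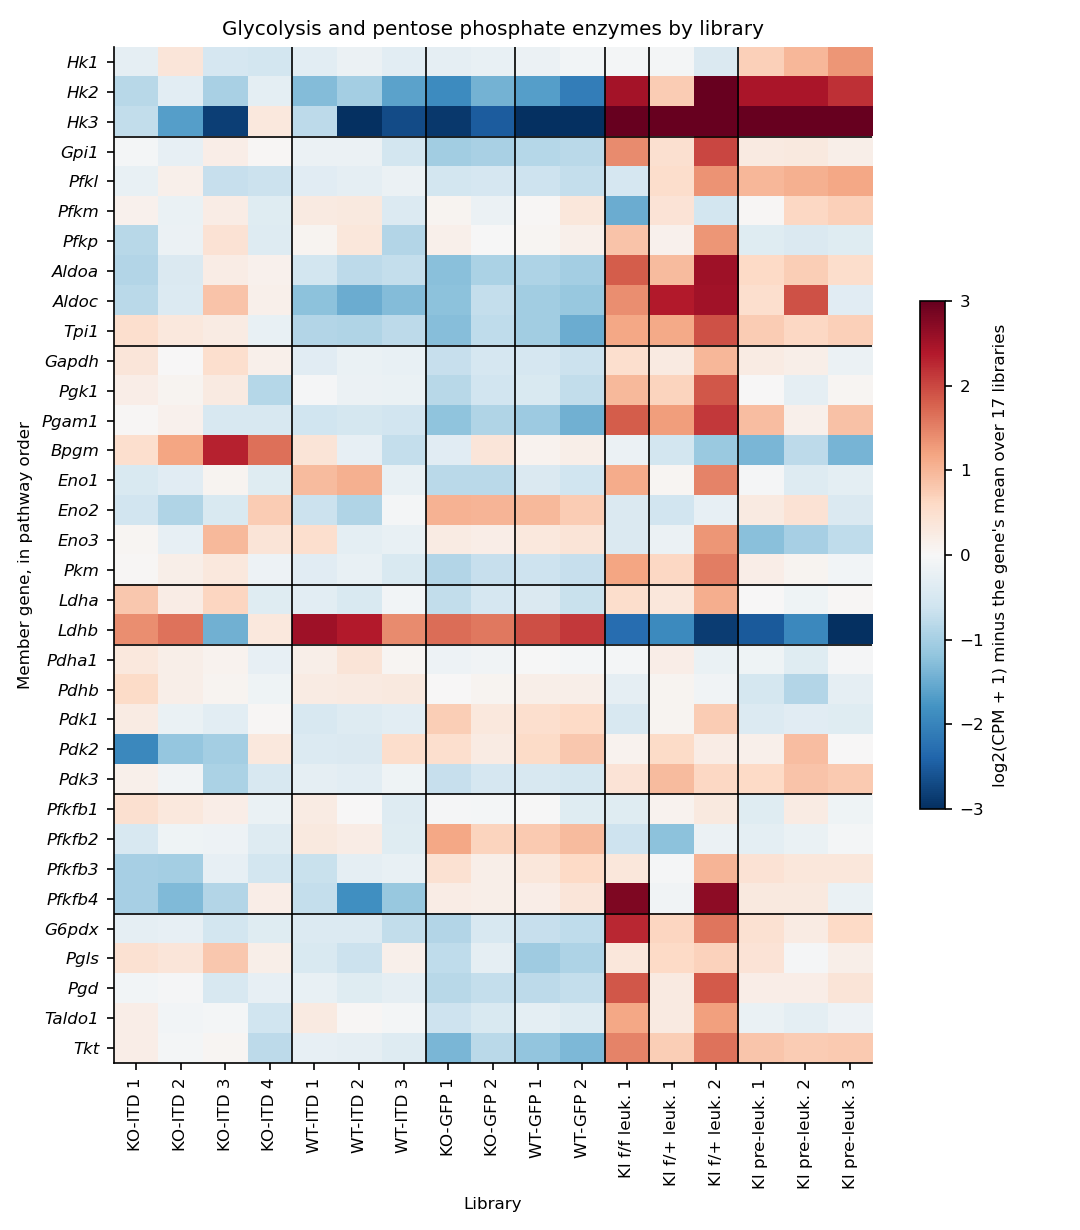
Heat map of the 34 genes (rows, in pathway order with lines between steps) in the 17 libraries (columns, grouped). Colour is log2(CPM + 1) minus the gene's mean over all libraries, with colours saturated beyond 3 in either direction. Hk2 and Hk3 are high and Ldhb is low in all 6 knock-in libraries, and most glycolytic rows are palest or blue in the 4 GFP libraries.

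Retroviral leukemia was first compared with GFP thymocytes by averaging the effects in both Dnmt3a genotypes. A gene can pass this test through the effect in 1 genotype. Of the 34 genes, 12 passed the test, 9 higher and 3 lower (edgeR, quasi-likelihood F test, p adjusted over all genes by Benjamini and Hochberg, threshold 0.05). The enzymes that rose form much of the chain from glucose-6-phosphate to lactate, namely Gpi1, Tpi1, Gapdh, Pgam1, Eno1, Pkm and Ldha, together with Pgls and Tkt of the pentose phosphate pathway. Those that fell were the pyruvate dehydrogenase kinase Pdk1 and the fructose-2,6-bisphosphate enzymes Pfkfb2 and Pfkfb3. Among all genes tested, 28.1% passed, so 12 of 34 is not far above the background, while 9 of 34 higher stands beside 15.3% of all genes higher, and 3 of 34 lower beside 12.7%. Groups did not overlap for 10 members, beside 20.9% of all genes. The median log2 fold change of the 34 genes was 0.37, against 0.13 for all genes. The GFP libraries all express Xist and most of the leukemias do not; with Xist expression as a covariate 1 member passed (Pgls, 1.04, adjusted p = 0.0249), and 5, 7 and 5 passed without KO-GFP replicate 1, WT-GFP replicate 1 and WT-GFP replicate 2. No fold change of a called member changed sign under those settings.

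In upper glycolysis, 2 of 7 genes rose. Gpi1, which turns glucose-6-phosphate into fructose-6-phosphate, had 610, 539, 737 and 657 CPM in KO-ITD and 561, 562 and 431 CPM in WT-ITD, against 307 and 322 CPM in KO-GFP and 350 and 366 CPM in WT-GFP. Every leukemia exceeded every GFP library, with a log2 fold change of 0.77 ± 0.23 (SE, adjusted p = 0.0247). Tpi1, which interconverts the triose phosphates, had 292, 253, 243 and 174 CPM in KO-ITD and 111, 109 and 117 CPM in WT-ITD, against 84.0 and 121 CPM in KO-GFP and 98.7 and 71.8 CPM in WT-GFP. The KO-ITD libraries were high, whereas WT-ITD overlapped the GFP range, and the averaged log2 fold change was 0.81 ± 0.19 (adjusted p = 0.00763). The 3 phosphofructokinases, which commit sugar to glycolysis, did not pass: Pfkl had a log2 fold change of 0.31, Pfkm of -0.05 and Pfkp of -0.21. Aldoa, the main aldolase here, did not overlap between leukemia and GFP libraries but missed the threshold (0.61 ± 0.27, adjusted p = 0.109).

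In lower glycolysis 4 of 8 genes rose. Gapdh, which oxidises glyceraldehyde-3-phosphate, had 1267, 999, 1405 and 1101 CPM in KO-ITD and 780, 862 and 849 CPM in WT-ITD, against 613 and 699 CPM in KO-GFP and 691 and 628 CPM in WT-GFP. The groups did not overlap, and the log2 fold change was 0.60 ± 0.16 (adjusted p = 0.018). Pgam1, the phosphoglycerate mutase, had 92.1, 98.3, 64.2 and 64.0 CPM in KO-ITD and 58.8, 61.9 and 60.3 CPM in WT-ITD, against 38.1 and 47.4 CPM in KO-GFP and 41.6 and 32.4 CPM in WT-GFP. All leukemias were again above all GFP libraries (0.80 ± 0.21, adjusted p = 0.0152). Pkm, the pyruvate kinase of most tissues, averaged 826 ± 161 CPM in the 7 leukemias and 529 ± 39.6 CPM in the 4 GFP libraries (SD), without overlap, with a log2 fold change of 0.60 ± 0.17 (adjusted p = 0.0216). Eno1, the ubiquitous enolase, had 370, 401, 538 and 395 CPM in KO-ITD and 980, 1068 and 438 CPM in WT-ITD, against 292 and 292 CPM in KO-GFP and 376 and 335 CPM in WT-GFP. Its log2 fold change was 0.88 ± 0.28 (adjusted p = 0.0332), with WT-ITD replicates 1 and 2 far above the rest and KO-ITD replicate 1 within the GFP range. The cell type counts move with these results as well: of 10 erythroid markers tested 9 were higher in retroviral leukemia, as were 7 of 10 granulocyte and 6 of 7 stroma markers, while 0 of 9 cell cycle genes passed. Summed stroma markers reached 3.74 to 2659 CPM in leukemia, against 6.69 to 9.04 CPM in GFP thymocytes, and granulocyte markers 17.4 to 1083 CPM, against 1.96 to 59.97 CPM. The part of these cells in the results was not tested.

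At the ends of the chain, Ldha, the lactate dehydrogenase subunit of muscle type, had 1190, 786, 1061 and 528 CPM in KO-ITD and 548, 492 and 638 CPM in WT-ITD, against 405 and 479 CPM in KO-GFP and 501 and 424 CPM in WT-GFP. Only WT-ITD replicate 2 lay within the GFP range, and the log2 fold change was 0.64 ± 0.22 (adjusted p = 0.042). Pdk1, which phosphorylates and so inhibits pyruvate dehydrogenase, had 252, 182, 168 and 214 CPM in KO-ITD and 152, 161 and 170 CPM in WT-ITD, against 353 and 263 CPM in KO-GFP and 300 and 321 CPM in WT-GFP. Every leukemia lay below every GFP library, with a log2 fold change of -0.77 ± 0.15 (adjusted p = 0.00366). Its kinase relatives did not pass, with -0.96 for Pdk2 (adjusted p = 0.0826) and 0.30 for Pdk3, and neither did the pyruvate dehydrogenase subunit genes Pdha1 (0.24) and Pdhb (0.13).

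The PFKFB enzymes set the level of fructose-2,6-bisphosphate, the strongest activator of phosphofructokinase. Pfkfb3, the form with the highest kinase activity, had 35.0, 34.5, 59.7 and 48.3 CPM in KO-ITD and 44.4, 58.8 and 60.9 CPM in WT-ITD, against 98.5 and 80.6 CPM in KO-GFP and 91.2 and 108 CPM in WT-GFP. The groups lay apart, and the log2 fold change was -0.94 ± 0.21 (adjusted p = 0.00634). Pfkfb2 averaged 29.0 ± 6.58 CPM in leukemias and 59.4 ± 9.36 CPM in GFP libraries (SD), also without overlap, at -1.02 ± 0.21 (adjusted p = 0.005). Pfkfb4 pointed the same way without passing (-1.30, adjusted p = 0.0566), and Pfkfb1, at 3.69 CPM or less in every library, did not pass (0.30).

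In the pentose phosphate pathway, Tkt, the transketolase that links it back to glycolysis, had 564, 477, 516 and 288 CPM in KO-ITD and 414, 408 and 376 CPM in WT-ITD, against 191 and 283 CPM in KO-GFP and 216 and 193 CPM in WT-GFP. All leukemias were above all GFP libraries, KO-ITD replicate 4 by the least, and the log2 fold change was 0.96 ± 0.21 (adjusted p = 0.00622). Pgls, which opens 6-phosphogluconolactone, had 116, 108, 148 and 96.1 CPM in KO-ITD and 61.5, 53.7 and 94.8 CPM in WT-ITD, against 49.6 and 70.4 CPM in KO-GFP and 40.1 and 44.0 CPM in WT-GFP. KO-ITD was high in all libraries and WT-ITD overlapped KO-GFP (0.85 ± 0.19, adjusted p = 0.00629). The NADPH-making dehydrogenases did not pass, with log2 fold changes of 0.27 for G6pdx and 0.52 for Pgd, and neither did the transaldolase Taldo1 (0.43).

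Leukemia was also compared with GFP thymocytes within each Dnmt3a genotype. Between KO-ITD and KO-GFP, 11 of 34 genes passed, 9 higher and 2 lower, while 19.6% of all genes passed (9.8% higher and 9.85% lower), and groups did not overlap for 17 members, beside 44.8% of all genes. The risers were Gapdh (0.86), Pkm (0.88), Pgam1 (0.90), Pgls (0.96), Tkt (0.96), Gpi1 (1.01), Ldha (1.01), Tpi1 (1.23) and Bpgm (1.51). The fallers were Pfkfb2 (-1.24) and Pfkfb3 (-1.01). Between WT-ITD and WT-GFP, 1 member passed, Pdk1 (-0.95 ± 0.22, adjusted p = 0.0422), beside 2.24% of all genes (1.35% higher and 0.89% lower). Groups did not overlap for 24 members, beside 45.7% of all genes. Pdk1 lost its call when any 1 of the 5 libraries was left out; without WT-ITD replicate 3 the 1 member called was another gene, higher in leukemia, and in the other fits 0 members passed. The difference between these effects was itself tested as an interaction, in which 0 members and 0% of all genes passed in edgeR. DESeq2 and limma called 0 members, and Tpi1 and Bpgm, 2 members beside 5.4% of all genes, had an unadjusted p below 0.05. These comparisons share libraries with the averaged one. Of its 9 risers, 8 were also called higher in KO-ITD against KO-GFP, and 0 in WT-ITD against WT-GFP. Markers of other cells moved with the contrast: 7 of 7 stroma and 3 of 5 megakaryocyte markers were higher in KO-ITD than in KO-GFP, and 0 of 7 and 0 of 5 in WT-ITD against WT-GFP. Summed stroma markers were 132 to 2659 CPM in KO-ITD and 3.74 to 128 CPM in WT-ITD, against 6.69 to 7.47 CPM in KO-GFP and 7.36 to 9.04 CPM in WT-GFP, and their part in the calls was not tested. The count of 11 for KO-ITD became 0 in a fit of KO-ITD and KO-GFP alone and 1 with the Xist covariate. It was 0 without KO-GFP replicate 1, 2 without KO-GFP replicate 2, 7 without KO-ITD replicate 1 or 3, and 11 without KO-ITD replicate 4.

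Bpgm, which makes 2,3-bisphosphoglycerate, the regulator of haemoglobin in red cells, had 89.5, 143, 314 and 200 CPM in KO-ITD, against 49.4 and 81.7 CPM in KO-GFP. All KO-ITD libraries were higher (1.51 ± 0.47, adjusted p = 0.0401), whereas WT-ITD had 83.2, 53.3 and 38.1 CPM and WT-GFP 67.5 and 71.4 CPM. The call was lost in 8 of 15 alternative settings, among them each fit without KO-ITD replicate 3, KO-ITD replicate 4, KO-GFP replicate 1 or KO-GFP replicate 2, with log2 fold changes from 0.83 to 1.97 and adjusted p up to 0.323. The summed erythroid markers were 465, 1211, 1494 and 1276 CPM in the same KO-ITD libraries, in the order given for Bpgm, against 15.8 and 149 CPM in KO-GFP, and 7 of 10 tested erythroid markers rose. WT-ITD had 618, 68.2 and 101 CPM of erythroid markers and WT-GFP 53.3 and 22.4 CPM. The part of erythroid RNA in the Bpgm value was not tested.

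Deletion of Dnmt3a in leukemia was examined by comparing KO-ITD with WT-ITD. Here 0 of 34 members passed in edgeR, beside 0.49% of all genes, with 8 members at an unadjusted p below 0.05 (20.3% of all genes), 4 members called by DESeq2 and 1 by limma. Without KO-ITD replicate 2, KO-ITD replicate 4 or WT-ITD replicate 3, the edgeR count was 2, 1 and 3. Closest were Tpi1, at 1.1 ± 0.23 (adjusted p = 0.0553), and Bpgm, at 1.68 ± 0.40 (adjusted p = 0.0832). For Tpi1, every KO-ITD library, the lowest at 174 CPM, was above every WT-ITD library, the highest at 117 CPM. Groups did not overlap for 8 of 34 members, beside 11.1% of all genes. In GFP thymocytes, KO-GFP and WT-GFP differed in 0 members and 0% of all genes, with 0 members at an unadjusted p below 0.05 (0.477% of all genes) and 0 in DESeq2 or limma. Their values did not overlap for 13 members, beside 37.9% of all genes.

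**Figure D2:**
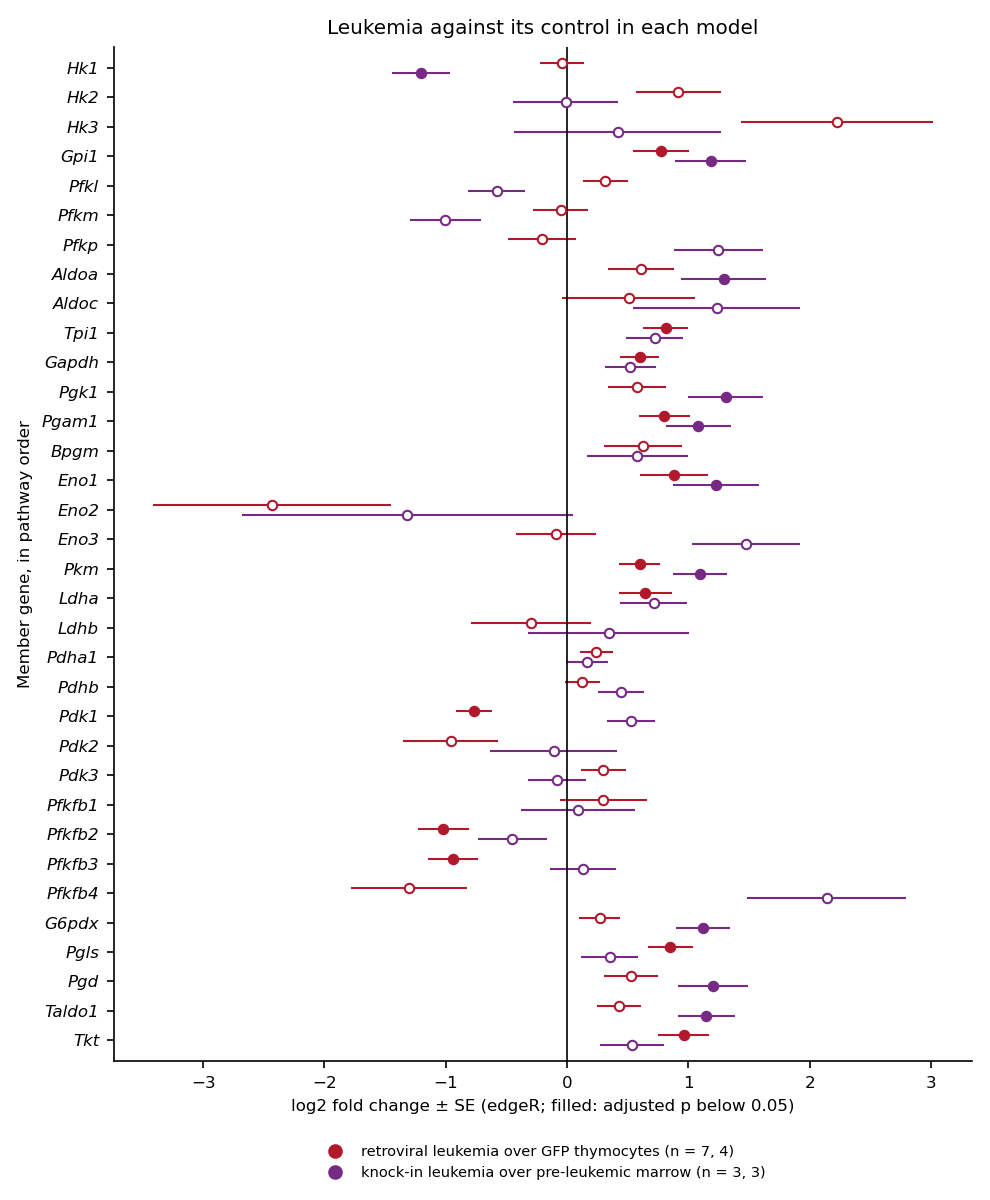
Log2 fold change with its SE for each of the 34 genes (rows, in pathway order) in retroviral leukemia over GFP thymocytes (red) and knock-in leukemia over pre-leukemic marrow (purple). Filled points passed the adjusted p threshold of 0.05. Gpi1, Pgam1, Eno1 and Pkm are filled on the right in both models, Pdk1 is filled on the left in the retroviral model alone, and Hk1 in the knock-in model alone.

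In the knock-in model, leukemic marrow was compared with pre-leukemic marrow, both with Flt3 +/ITD. Every leukemia here had ER-cre and a lower Dnmt3a level, and no pre-leukemic marrow had Cre. Leukemia, Cre and Dnmt3a deletion therefore cannot be told apart in this comparison. Of the 34 genes, 10 passed, 9 higher and 1 lower, beside 9.38% of all genes (5.29% higher and 4.09% lower). Groups did not overlap for 15 members, beside 32.8% of all genes. The risers were Gpi1 and Aldoa in upper glycolysis, Pgk1, Pgam1, Eno1 and Pkm in lower glycolysis, and G6pdx, Pgd and Taldo1 in the pentose phosphate pathway; the faller was Hk1. The median log2 fold change was 0.53, against 0.00 for all genes. Monocyte and macrophage markers summed to 593 to 2415 CPM in knock-in leukemia, against 197 to 395 CPM in pre-leukemic marrow. Megakaryocyte markers summed to 63.4 to 107 CPM, against 149 to 256 CPM. As single genes, 7 of 10 T cell, 3 of 10 granulocyte, 3 of 10 erythroid and 1 of 7 stroma markers were higher. Lower were 1 T cell and 1 erythroid marker. None of the 8 monocyte and macrophage or 5 megakaryocyte markers passed. Hba-a1, a red cell gene, had 2.67, 3.21 and 3.70 CPM in pre-leukemic marrow, against 34.8 (f/f), 15.4 and 20.8 CPM (f/+). In the same order, the granulocyte gene S100a8 had 41.4, 67.3 and 25.3 CPM, against 841, 339 and 1182 CPM. Mpo had 3192, 2762 and 2026 CPM, against 3962, 967 and 4417 CPM. Summed erythroid markers overlapped between the groups. The part of these cells in the results was not tested. Whether pre-leukemic marrow was whole marrow or an enriched fraction was not tested. The Dnmt3a f/+ replicate 1 leukemia was the lowest of the 3 leukemias for every riser. It also had the lowest sum of granulocyte markers of the leukemias, at 3607 CPM beside 14848 CPM (Dnmt3a f/f) and 18881 CPM (Dnmt3a f/+ replicate 2), against 2658 to 4202 CPM in pre-leukemic marrow, and the part of granulocytic RNA in these results was not tested. The count was 16 without that leukemia, but 2, 1 and 3 without pre-leukemic replicates 1, 2 and 3 and 1 in a fit of these groups alone.

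Among the glycolytic risers, Gpi1 had 1705 CPM in the Dnmt3a f/f leukemia and 887 and 2574 CPM in the Dnmt3a f/+ leukemias, against 774, 778 and 724 CPM in pre-leukemic marrow. All leukemias were higher, with a log2 fold change of 1.18 ± 0.29 (adjusted p = 0.0278). Pkm had 1986 CPM in the f/f leukemia and 1339 and 2523 CPM in the f/+ leukemias, against 1004, 917 and 815 CPM in pre-leukemic marrow, again without overlap (1.1 ± 0.22, adjusted p = 0.0134). Pgk1, the first ATP-yielding kinase of glycolysis, averaged 845 ± 379 CPM in leukemias and 339 ± 41.4 CPM in pre-leukemic marrow (SD, n = 3 each), at 1.31 ± 0.31 (adjusted p = 0.0241). Aldoa averaged 1215 ± 638 CPM in leukemias and 496 ± 40.2 CPM in pre-leukemic marrow (SD, n = 3 each), at 1.29 ± 0.35 (adjusted p = 0.0384). Pgam1 (1.08 ± 0.27, adjusted p = 0.0284) and Eno1 (1.23 ± 0.36, adjusted p = 0.0487) completed the glycolytic group, both without overlap between the groups.

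In the pentose phosphate pathway G6pdx, Pgd and Taldo1 rose. The difference between models was not past the threshold for any of the 5 members of this pathway. G6pdx, the rate-limiting NADPH-making enzyme of the pathway, had 452 CPM in the f/f leukemia and 148 and 286 CPM in the f/+ leukemias, against 128, 112 and 142 CPM in pre-leukemic marrow. The lowest leukemia exceeded the highest control by a narrow margin, and the log2 fold change was 1.12 ± 0.22 (adjusted p = 0.013). Pgd, the next NADPH-making enzyme, had 544 CPM in the f/f leukemia and 180 and 534 CPM in the f/+ leukemias, against 170, 171 and 194 CPM in pre-leukemic marrow, so that f/+ replicate 1 overlapped the controls (1.20 ± 0.29, adjusted p = 0.0247). Taldo1 averaged 530 ± 171 CPM in leukemias and 238 ± 11.4 CPM in pre-leukemic marrow (SD, n = 3 each), at 1.15 ± 0.24 (adjusted p = 0.0146). Tkt and Pgls did not pass (0.54, adjusted p = 0.204, and 0.35, adjusted p = 0.35).

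Hk1, the hexokinase of most tissues, fell in knock-in leukemia: it had 195 CPM in the f/f leukemia and 196 and 149 CPM in the f/+ leukemias, against 332, 403 and 509 CPM in pre-leukemic marrow. The groups lay far apart, and the log2 fold change was -1.21 ± 0.24 (adjusted p = 0.013). Hk1 kept its call in all 12 alternative settings run for it. Pfkfb4, a form known as a hypoxia target, was at 69.6 CPM in the f/f leukemia and 8.53 and 64.3 CPM in the f/+ leukemias, against 11.6, 11.5 and 7.83 CPM in pre-leukemic marrow. It missed the threshold (2.14 ± 0.66, adjusted p = 0.0574), with f/+ replicate 1 inside the range of the controls.

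**Figure D3:**
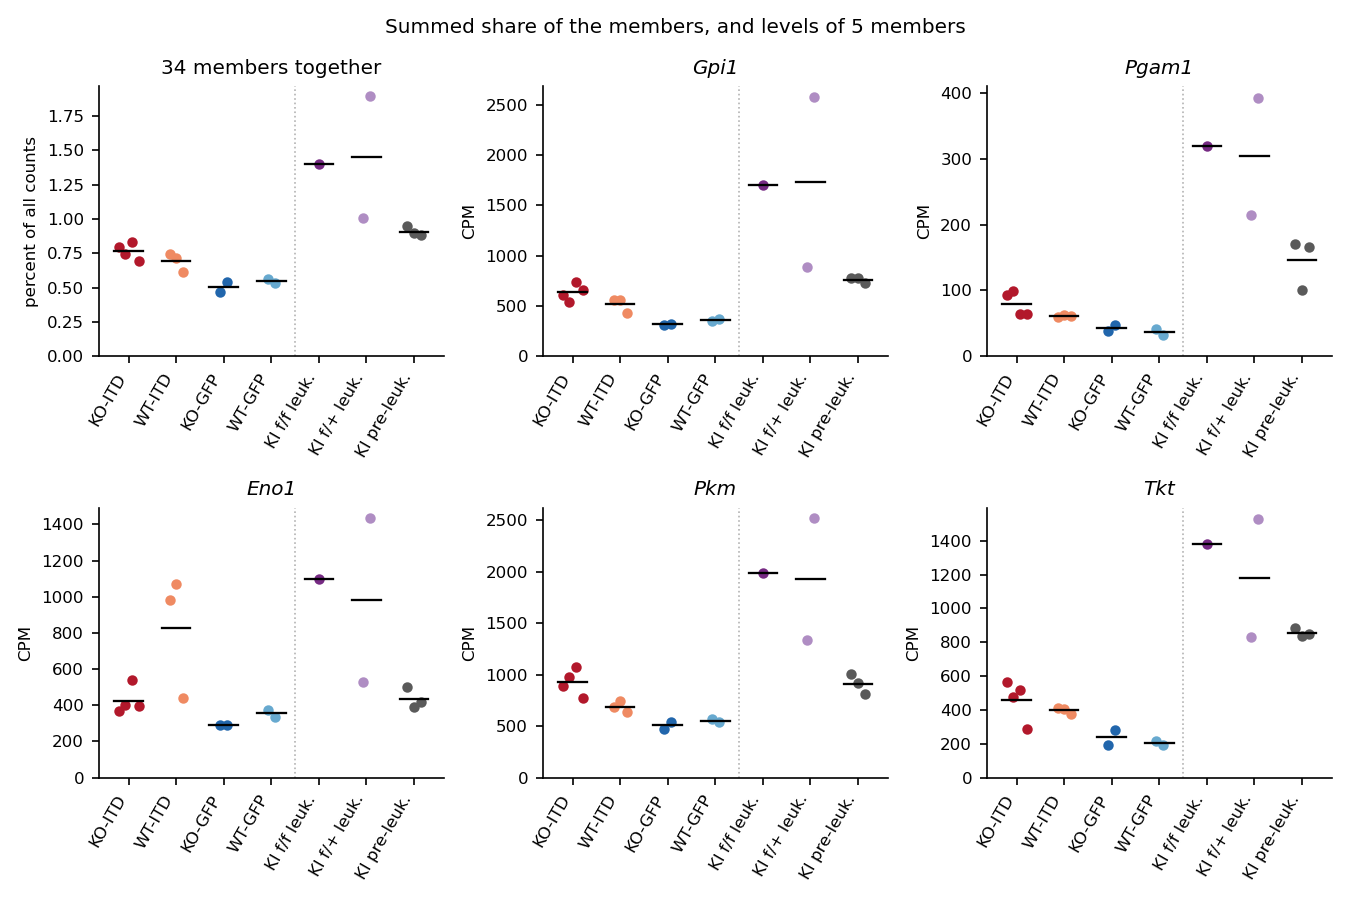
Share of all counts held by the 34 genes together (first panel, percent) and CPM of Gpi1, Pgam1, Eno1, Pkm and Tkt in each library (points), with the group mean as a line. Every axis starts at 0. Leukemia groups stand left of their controls within each model, and retroviral leukemias lie above all GFP libraries in every panel except Eno1.

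Gpi1, Pgam1, Eno1 and Pkm rose in both models, which is 4 of the 9 risers in each (44.4%). The overlap of risers was not counted over all genes, so this share has no background to be read against. The models share no libraries, but they were fitted together. In the retroviral model Gpi1 kept its call in 13, Pgam1 in 16, Pkm in 13 and Eno1 in 9 of 20 alternative settings. In the knock-in model Gpi1 kept it in 8, Pgam1 in 5, Pkm in 9 and Eno1 in 3 of 12. To ask whether an effect differed between models, the contrast of the retroviral effect minus the knock-in effect was tested, a comparison added after the values were seen. Its effects rest on unlike controls, since GFP thymocytes lack FLT3-ITD and pre-leukemic marrow carries it. Of the 34 genes 3 passed, beside 9.2% of all genes (4.62% higher and 4.58% lower): Hk1 (1.16 ± 0.30, adjusted p = 0.0316), Pdk1 (-1.29 ± 0.25, adjusted p = 0.0103) and Pfkfb4 (-3.44 ± 0.81, adjusted p = 0.0226). Hk1 fell in the knock-in model and stood at -0.04 in the retroviral one. Pdk1 fell in the retroviral model and stood at 0.52 in the knock-in one. Pdk1 kept its call in 22 of 22 alternative settings, Hk1 in 14 and Pfkfb4 in 16. The Xist covariate and fits of thymus alone, the first submission alone or the compared groups alone were not run for this contrast. The count was 1 without KO-GFP replicate 1, WT-GFP replicate 2 or pre-leukemic replicate 2 or 3, 5 without KO-ITD replicate 3 and 13 without the f/+ replicate 1 leukemia.

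Promoters of the members were looked up in the RefSeq table on build GRCm38.p6, and all 34 genes had at least 1, 54 promoters in all, each running from 250 bases before to 50 after a start. ACGTG and CACGTG were counted on both strands, the first being the core of the hypoxia response element and the second the E-box to which Myc binds. Each E-box holds ACGTG on both strands and so counts as 2 ACGTG matches. ACGTG was found in 21 of 54 member promoters (38.9%), from 17 genes, against 19.6% of all 32851 promoters of that length, and CACGTG in 5 of 54 (9.26%), against 7.15% of all. Among the 4 genes that rose in both models, ACGTG was found for Pgam1 and for the downstream of 2 Pkm starts, and not for Gpi1 or any of 3 Eno1 starts. The promoters with a match are printed together with the upstream one of Ldha, which held the most of any member, 5 of ACGTG from 2 E-boxes and 1 further site. Capitals mark the motifs, and a match is a description of these letters alone.
Pgam1 promoter, chr19:41911621-41911920, + strand: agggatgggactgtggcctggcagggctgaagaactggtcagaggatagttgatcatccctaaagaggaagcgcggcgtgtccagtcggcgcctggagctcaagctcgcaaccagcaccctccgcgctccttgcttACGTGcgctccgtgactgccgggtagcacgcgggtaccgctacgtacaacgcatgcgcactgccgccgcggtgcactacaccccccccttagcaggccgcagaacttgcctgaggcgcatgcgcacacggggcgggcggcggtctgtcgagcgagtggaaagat
Pkm promoter, chr9:59656977-59657276, + strand: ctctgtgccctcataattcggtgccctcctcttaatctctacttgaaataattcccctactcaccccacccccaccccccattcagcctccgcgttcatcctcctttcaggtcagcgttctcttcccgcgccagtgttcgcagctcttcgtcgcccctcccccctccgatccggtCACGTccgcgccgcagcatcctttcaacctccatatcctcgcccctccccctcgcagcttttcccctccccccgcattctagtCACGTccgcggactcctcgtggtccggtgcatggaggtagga
Ldha promoter, chr7:46845554-46845853, + strand: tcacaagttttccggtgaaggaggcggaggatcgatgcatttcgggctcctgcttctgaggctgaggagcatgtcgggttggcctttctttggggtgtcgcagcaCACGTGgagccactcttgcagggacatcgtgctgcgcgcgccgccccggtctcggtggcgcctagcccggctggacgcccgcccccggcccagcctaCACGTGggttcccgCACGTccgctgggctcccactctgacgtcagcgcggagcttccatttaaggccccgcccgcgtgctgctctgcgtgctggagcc

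Sorted T cell leukemia and unsorted marrow leukemia differed widely in these enzymes, although model, cell type, sort and transgene cannot be told apart. All knock-in leukemias came from the later submission, as did only KO-ITD replicates 3 and 4 of the retroviral ones. All knock-in leukemias had Cre with floxed Dnmt3a, whereas WT-ITD was Dnmt3a +/+. Of 34 genes 22 passed between retroviral and knock-in leukemia, 2 higher and 20 lower in the retroviral leukemias, beside 32.8% of all genes (15.3% higher and 17.5% lower), and groups did not overlap for 16 members, beside 18.7% of all genes. The 20 lower genes took in 2 of 3 hexokinases, 6 of 7 upper and 5 of 8 lower glycolytic genes and 4 of 5 pentose phosphate genes. Their log2 fold changes ran from -0.57 for Gapdh to -5.64 for Hk3. The median of all 34 was -0.90, against 0.08 for all genes. The 2 genes higher in retroviral leukemia were Ldhb, the lactate dehydrogenase subunit of heart type, and Bpgm.

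Levels per kilobase of exon were used to compare isoenzymes. Among hexokinases, Hk1 held 91.3% ± 5.77 of the summed level in retroviral leukemia (SD, n = 7), against 96.8% ± 0.845 in GFP thymocytes (n = 4). In knock-in leukemia Hk1 held 31.8% ± 11.7 and Hk3, the form of myeloid cells, 54.2% ± 5.14 (n = 3), against 54.7% ± 8.15 for Hk1 and 33.1% ± 6.63 for Hk3 in pre-leukemic marrow (n = 3). Hk3 had 0.306 to 16.4 CPM in retroviral leukemia, against 159 to 313 CPM in knock-in leukemia, a log2 fold change of -5.64 ± 0.73 (adjusted p = 0.000117). Its highest retroviral value was in KO-ITD replicate 4, the library with the most monocyte markers, and the fold change was -6.15 without it. Hk2, the inducible muscle form, had 6.14 to 16.7 CPM in retroviral leukemia, against 35.5 to 175 CPM in knock-in leukemia (-3.36 ± 0.35, adjusted p = 2.21e-05). The groups did not overlap for either gene.

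Lactate dehydrogenase was split in another way. Ldhb had 337, 395, 46.7 and 160 CPM in KO-ITD and 745, 667 and 344 CPM in WT-ITD, against 411 and 384 CPM in KO-GFP and 488 and 557 CPM in WT-GFP, so that the leukemias ranged widely around the GFP libraries (-0.30, adjusted p = 0.678). In knock-in leukemia it had 16.7 to 33.4 CPM, and every retroviral leukemia was higher (3.78 ± 0.69, adjusted p = 0.00117). Ldha made up 58.8% ± 21.6 of the pair in retroviral leukemia (n = 7, 33.0% to 93.8%), against 39.9% ± 4.84 in GFP thymocytes (n = 4), and 96.4% ± 1.90 in knock-in leukemia, against 95.6% ± 2.90 in pre-leukemic marrow (SD, n = 3 each). Among the retroviral leukemias, the Ldha share was highest in KO-ITD replicate 3.

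**Figure D4:**
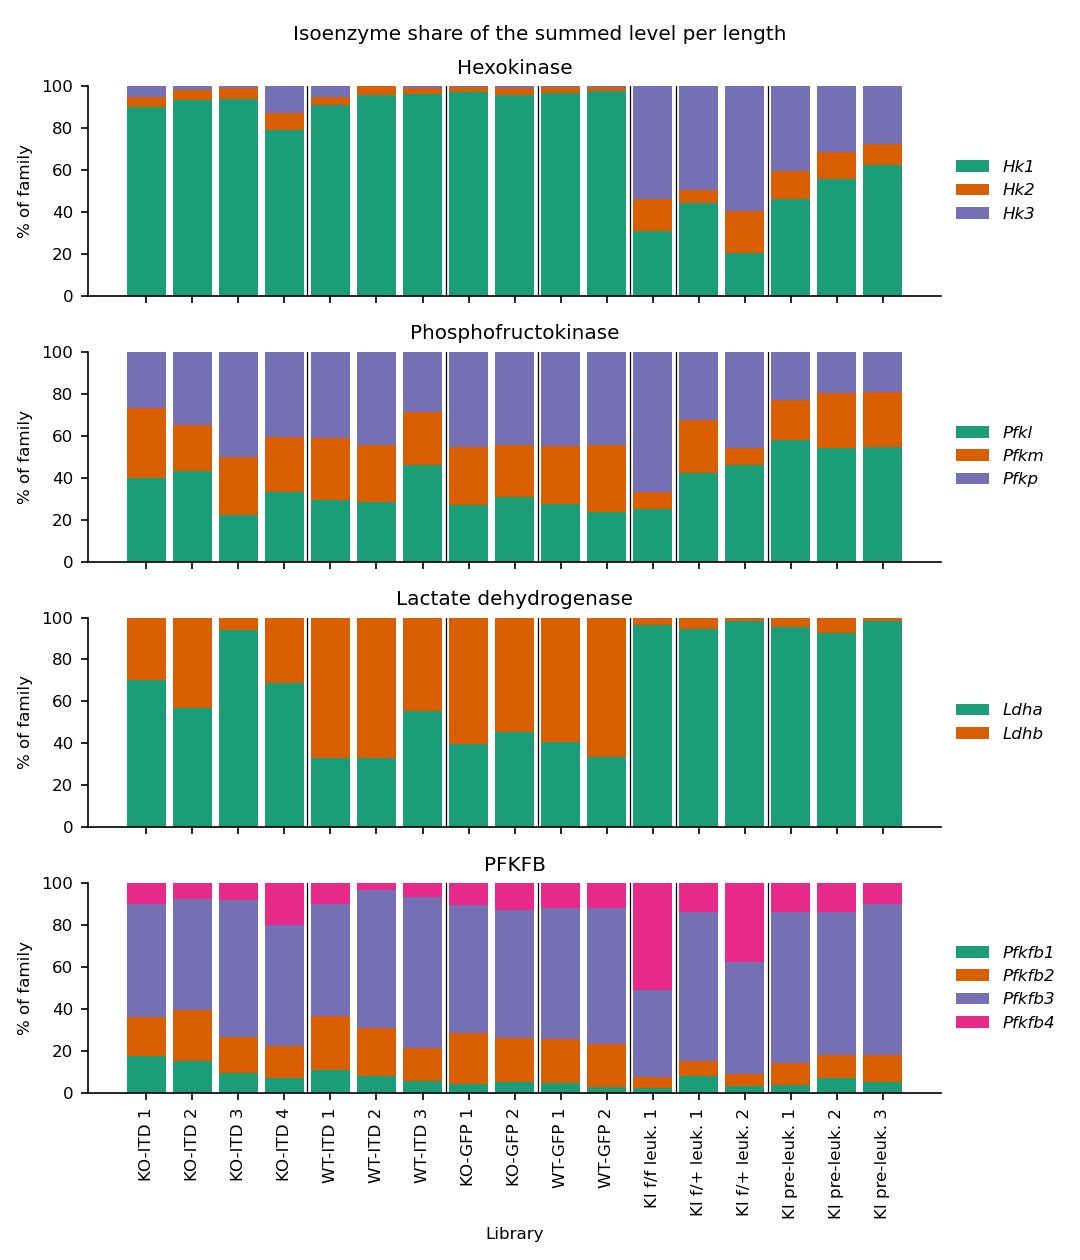
Share of each isoenzyme in the summed level per kilobase of exon of its family (percent), for hexokinases, phosphofructokinases, lactate dehydrogenases and PFKFB enzymes, with 1 bar for each of 17 libraries and lines between groups. Hk1 fills most of each retroviral bar, while Hk3 and Ldha are the largest parts of their families in the knock-in leukemia bars.

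Log2 ratios of 12 isoenzyme pairs were tested with exact two-sided permutation tests over libraries, adjusted over the 12 ratios. In retroviral leukemia against GFP thymocytes 0 ratios passed after adjustment, with 4 at an unadjusted p below 0.05. Hk2 over Hk1 came closest, at a mean log2 ratio of -4.29 in leukemia and -5.32 in GFP thymocytes, a difference of 1.03 (exact p = 0.00667, adjusted 0.08), where 0.00667 is the smallest p that 150 arrangements within genotypes can give. Eno2 over Eno1 was the 1 ratio whose groups did not overlap, at -10.88 in leukemia and -7.47 in GFP thymocytes (exact p = 0.02, adjusted 0.08), but it rests on Eno2 levels of at most 2.87 CPM. Pdk3 over Pdk2 differed by 1.45 (exact p = 0.02, adjusted 0.08). The number of ratios without overlap was 2 without KO-ITD replicate 4, WT-ITD replicate 3 or WT-GFP replicate 1, and 3 without KO-GFP replicate 2.

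In knock-in leukemia against pre-leukemic marrow, 4 of 12 ratios did not overlap: Hk3/Hk1 was higher in leukemia by 1.56, Pfkp/Pfkl by 1.78, Eno2/Eno1 lower by a log2 difference of -2.26 and Pfkfb2/Pfkfb3 by -0.59. Pfkp is the platelet form and Pfkl the liver form of phosphofructokinase. The exact p was 0.1 for each, the smallest that 20 arrangements allow, so no ratio could pass, and 7 ratios did not overlap without the f/+ replicate 1 leukemia. Between retroviral and knock-in leukemia, 4 ratios did not overlap: Hk2/Hk1 differed by -3.03, Hk3/Hk1 by -6.20, Ldhb/Ldha by 4.17 and Pfkfb2/Pfkfb3 by 1.59. Each had the smallest exact p that 120 arrangements allow, 0.00833, and an adjusted value of 0.025. Pfkfb3/Pfkfb4 also passed (1.95, exact p = 0.0167, adjusted 0.04), with overlap.

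Pkm is a gene of alternative enzymes, since its transcript takes up either the M1 exon, typical of adult muscle and brain, or the M2 exon, typical of dividing cells. The exons have 167 bases each and lie at chr9:59675029-59675195 (M1) and chr9:59675568-59675734 (M2) on the + strand of GRCm38, as exon 9 of 11 in transcripts NM_001253883 and NM_011099. They agree at 103 of 167 bases (61.7%), and capitals mark the 64 that differ.
Pkm M1 exon: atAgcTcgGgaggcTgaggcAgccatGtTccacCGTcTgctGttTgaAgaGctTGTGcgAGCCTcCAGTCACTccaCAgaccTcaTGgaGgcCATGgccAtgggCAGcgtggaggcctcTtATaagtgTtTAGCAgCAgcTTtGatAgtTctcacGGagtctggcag
Pkm M2 exon: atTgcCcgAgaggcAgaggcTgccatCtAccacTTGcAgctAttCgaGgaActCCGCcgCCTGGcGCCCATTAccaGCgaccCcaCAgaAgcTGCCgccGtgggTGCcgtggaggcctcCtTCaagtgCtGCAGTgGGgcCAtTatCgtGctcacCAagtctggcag

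The deposited transcript counts, which the authors' software divided between these forms, put nearly all Pkm in the M2 form. The M1 transcript held 1.66%, 2.59%, 1.39% and 1.82% of the M1 and M2 count in KO-ITD and 3.08%, 2.32% and 5.29% in WT-ITD, against 4.81% and 6.18% in KO-GFP and 4.21% and 5.69% in WT-GFP. Every KO-ITD library was below every GFP library, and WT-ITD replicate 3 lay within the GFP range. In knock-in leukemia the M1 share was 3.14% (f/f), 5.81% and 2.88% (f/+), against 5.50%, 7.43% and 5.51% in pre-leukemic marrow, with overlap at the f/+ replicate 1 leukemia. No test was made, and the error of the division between transcripts is not given in the table.

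**Figure D5:**
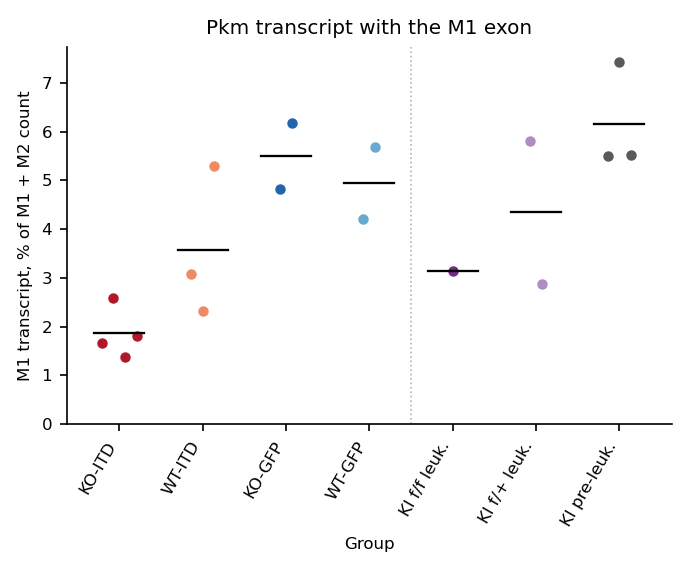
Percent of the summed Pkm M1 and M2 transcript count held by the M1 transcript in each of 17 libraries (points), by group, with the group mean as a line and the axis from 0. The 4 KO-ITD libraries sit between 1.39% and 2.59%, below all 4 GFP libraries.

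Neighbouring pathways were read from lists of other genes, each set beside the share of all genes that passed. In the retroviral model 15.3% of all genes passed as higher and 12.7% as lower. In the knock-in model these shares were 5.29% and 4.09%. The list genes were not refitted under the alternative settings, and the part of other cells in their values was not tested. With the Xist covariate, 6.32% of all genes passed in retroviral leukemia against GFP thymocytes, beside 28.1% without it. Genes are named in order of change among those called with at least 5 CPM in the higher group, which leaves out Pklr, Pck1, Pdk4 and Nqo1, called in the retroviral model below that level. Of 23 tested genes among further glycolytic, sugar-feeding and pentose phosphate enzymes, 7 rose and 0 fell in retroviral leukemia, with a median log2 fold change of 0.50, against 0.13 for all genes. Above that level the first 3 were Ldhd, D-lactate dehydrogenase, Pgm2, a phosphoglucomutase, and Galk1, galactokinase. In that order, their log2 fold changes were 3.62 ± 1.09 (adjusted p = 0.027), 2.2 ± 0.24 (adjusted p = 0.000123) and 1.77 ± 0.22 (adjusted p = 0.00026). Pgm2 averaged 68.2 CPM in leukemia and 14.7 CPM in GFP thymocytes. In knock-in leukemia 2 of 23 rose, Adpgk, an ADP-dependent glucokinase (2.22 ± 0.61, adjusted p = 0.0399), and Rbks, ribokinase (1.16 ± 0.34, adjusted p = 0.0475), and the median was 0.18, against 0.00 for all genes. Of 11 glucose and lactate transport genes, 1 rose in retroviral leukemia, Bsg, the chaperone of lactate transporters (0.43 ± 0.13, adjusted p = 0.0289), and 0 passed in knock-in leukemia; the medians were 0.46 and 0.82.

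Of 4 tested gluconeogenesis genes, 3 rose in retroviral leukemia and 0 passed in knock-in leukemia, with medians of 3.57 and -0.72. Fbp1, which removes a phosphate from fructose-1,6-bisphosphate, averaged 175 CPM in KO-ITD and 20.04 CPM in WT-ITD, against 0.924 CPM in KO-GFP and 1.07 CPM in WT-GFP. It rose in both genotypes (7.57 ± 0.73, adjusted p = 0.00013, and 4.22 ± 0.62, adjusted p = 0.00388) and was also higher in KO-ITD than in WT-ITD (3.12 ± 0.47, adjusted p = 0.0122). G6pc3, a glucose-6-phosphatase, rose as well (1.83 ± 0.21, adjusted p = 0.000151). Of 29 genes of pyruvate oxidation and the citrate cycle, 11 rose and 0 fell in retroviral leukemia, with a median of 0.36, against 0.13 for all genes. Pcx, pyruvate carboxylase, came first (2.34 ± 0.47, adjusted p = 0.0042), before Suclg2, a succinyl-CoA ligase subunit (1.25 ± 0.21, adjusted p = 0.00164), and Idh3a, an isocitrate dehydrogenase subunit (0.83 ± 0.20, adjusted p = 0.0102). In knock-in leukemia 3 of the 29 rose and 2 fell, with a median of 0.15. Mpc1 (1.35 ± 0.31, adjusted p = 0.0207) and Mpc2 (1.02 ± 0.22, adjusted p = 0.0156), the mitochondrial pyruvate carrier subunits, were higher, and Pdp2, a pyruvate dehydrogenase phosphatase, was lower (-1.44 ± 0.40, adjusted p = 0.0423). Of 10 NADPH-using and antioxidant genes, 7 rose in retroviral leukemia and 1 in knock-in leukemia, with medians of 0.78 and 0.22. Srxn1, sulfiredoxin (3.8 ± 1.16, adjusted p = 0.0282), Hmox1, heme oxygenase (3.54 ± 0.94, adjusted p = 0.0159), and Gsr, glutathione reductase (2.26 ± 0.45, adjusted p = 0.00409), came first in the retroviral model. Gsr was also the 1 gene that rose in knock-in leukemia (2.71 ± 0.56, adjusted p = 0.0147).

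Among 19 regulators, 3 passed in each model, with medians of 0.06 in the retroviral and 0.23 in the knock-in model. Myc, a transcription factor that acts on many glycolytic genes, moved in opposite directions. It averaged 188 CPM in retroviral leukemia and 49.5 CPM in GFP thymocytes (1.87 ± 0.21, adjusted p = 0.000151), and 181 CPM in knock-in leukemia and 484 CPM in pre-leukemic marrow (-1.44 ± 0.26, adjusted p = 0.00899). The difference between models was 3.31 ± 0.33 (adjusted p = 0.000513). The other regulators called were Mtor (-0.65) and Arnt (-0.57) in retroviral leukemia, and Trp53 (-1.31) and Vhl (1.09) in knock-in leukemia. Of 16 hypoxia response genes outside glycolysis, 5 rose and 0 fell in each model, with medians of 0.42 in the retroviral and 1.21 in the knock-in model. In retroviral leukemia Vegfa, the vascular growth factor, changed most, at 73.9 CPM in leukemia and 6.06 CPM in GFP thymocytes (3.56 ± 0.27, adjusted p = 8.04e-06), before Ndrg1 (1.56) and Mif (1.46). In knock-in leukemia Ankrd37 led (3.59 ± 0.78, adjusted p = 0.0175), before Ddit4 (2.70) and Vegfa, at 56.5 CPM in leukemia and 14.1 CPM in pre-leukemic marrow (1.94 ± 0.30, adjusted p = 0.00462).

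On mm9, the build of the deposited gene models, 5 of the members lie on X (Pgk1, Pdk3, G6pdx, Pdha1 and Pfkfb1). Gpi1 spans chr7:34986346-35015324, Pgam1 chr19:41986361-41993155, Eno1 chr4:149611306-149622982, Pkm chr9:59504175-59527182 and Hk1 chr10:61731603-61842656. Several of these enzymes, Gapdh and Eno1 above all, have processed pseudogenes, and Eno1, Pfkm and G6pdx had counts that were not whole in 6, 5 and 4 libraries. Their levels are uncertain to the extent that the counting divided reads among copies.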

How the data were processed

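Poly(A)-selected RNA was sequenced from 19 samples, per the labels' protocols. Each WT-GFP library was sequenced in 2 technical runs that share a column, which left 17 libraries. The deposited values are estimated counts per gene and per transcript, made by the authors with TopHat2 2.0.10 on mm9, Cufflinks and Cuffdiff (2.1.1, and 2.2.1 for later records), per the submitters' processing notes. The later submission holds every knock-in library and, of the retroviral ones, KO-ITD replicates 3 and 4. How strand was used, and which step wrote the counts, is not given in the sources.

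Estimated counts were rounded to whole numbers. edgeR 4.0.16 (R 4.3.3) was fitted to all 7 groups at once, with filterByExpr, TMM scaling, the quasi-likelihood F test and Benjamini-Hochberg adjustment over 15508 genes at 0.05; SEs follow from F. CPM uses TMM-scaled totals, and levels per kilobase use the union of exons. Isoenzyme ratios used a prior count of 2. Alternatives were DESeq2 1.42.0, limma 3.58.1, other scaling and filters, subsets of libraries, an Xist covariate and leaving out each library. The script was tested on simulated data. Members, lists and tests were chosen with earlier results of these data known, and all 34 members are named. From other lists, up to 3 called genes with at least 5 CPM were named by size of change in each of the retroviral and knock-in comparisons. Same-numbered replicates were checked for pairing, which the check could neither show nor exclude. Total counts of 4933890 to 25331908 per library limit precision for genes of few CPM.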

Additional observations from a re-analysis of the deposited data

Results flagged for a closer look

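Effects of Hk1, Pdk1 and Pfkfb4 differed between the models by a test of the difference itself. The difference, retroviral effect minus knock-in effect, was 1.16 for Hk1 (edgeR, adjusted p = 0.0316), -1.29 for Pdk1 (adjusted p = 0.0103) and -3.44 for Pfkfb4 (adjusted p = 0.0226). Pdk1 kept its call in 22 of 22 alternative settings. Hk1 lost it in 8, among them 7 of 17 fits without 1 library, and Pfkfb4 in 6. The settings run for this contrast left out the Xist covariate, thymus alone, the first submission alone and the compared groups alone. In retroviral leukemia against GFP thymocytes, Pdk1 lost its call with the Xist covariate (edgeR, adjusted p = 0.0536). Model, tissue, sort and kind of control cannot be told apart in these differences. The GFP controls lack FLT3-ITD, whereas the pre-leukemic controls carry it and differ from their leukemias by Cre and Dnmt3a deletion. All GFP libraries came from the first submission and express Xist. All knock-in libraries came from the later submission and had at most 2.26 CPM of Xist.

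Among 47 sets of 4 libraries tested for a sample far from its group, 1 stood out. Chance alone flags about 1 in 20 such sets, so 1 of 47 is not more than chance gives. The sets are not independent, since ratios reuse the same genes. Eno2, the neuronal enolase, had 2.18 CPM in KO-ITD replicate 4, while the other KO-ITD libraries had at most 0.361 CPM, a gap of 0.835 of the group's range. That library also had the highest monocyte and stroma marker sums of the retroviral libraries, and their part in the value was not tested.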

How the results depend on the processing

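Among 797 refitted log2 fold changes of called members, 612 kept their call, 185 lost it and 0 changed sign. In each comparison these covered up to 12 called members with the largest changes, at 5 CPM or more. Of the 22 members called between retroviral and knock-in leukemia, those with smaller changes were thus not followed. With the Xist covariate, the count of members called was 1 for KO-ITD against KO-GFP, 0 for WT-ITD against WT-GFP and 1 for retroviral leukemia against GFP. In fits of the compared groups alone it was 0 for KO-ITD against KO-GFP, 2 for WT-ITD against WT-GFP and 1 for knock-in leukemia against pre-leukemic marrow. For WT-ITD against WT-GFP it was 0 without a filter, in thymus alone and with a replicate block, 3 with DESeq2 and 2 in the first submission alone. For KO-ITD against WT-ITD it was 4 with DESeq2, and 1 with DESeq2 size factors, with limma and in the first submission alone. It was 19 for retroviral leukemia against GFP in the first submission alone, and 8 for the difference between models with DESeq2. With members of at least 5 CPM, 0 isoenzyme ratios lacked overlap between retroviral leukemia and GFP. The cause of these shifts was not tested.

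Leaving out 1 library at a time gave 0 to 11 members for KO-ITD against KO-GFP, 0 to 1 for WT-ITD against WT-GFP, 5 to 17 for retroviral leukemia against GFP, 0 to 3 for KO-ITD against WT-ITD, 1 to 16 for knock-in leukemia against pre-leukemic marrow, 18 to 24 for retroviral against knock-in leukemia and 1 to 13 for the difference between models. Isoenzyme ratios without overlap numbered 1 to 3 for retroviral leukemia against GFP, 4 to 7 for knock-in leukemia against pre-leukemic marrow and 4 to 6 for retroviral against knock-in leukemia. Deviations of same-numbered replicates correlated at -0.22 to 0.37, which can neither show nor exclude pairing. The replicate block gave 9, 12, 8 and 21 members for KO-ITD against KO-GFP, retroviral leukemia against GFP, knock-in leukemia against pre-leukemic marrow and retroviral against knock-in leukemia. Crossing the numbers of KO-GFP and WT-GFP, chosen after the data were seen, gave 0 members and 356 genes.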
